A study of Mus musculus with 18 samples.

Results

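Asparaginase-treated mouse livers of 8 weeks were compared with asparaginase-treated livers of 2 weeks, which together make 6 of the 18 libraries of the series, 3 in each group. The members were taken by their labels alone: all libraries labelled with asparaginase at 8 weeks and at 2 weeks. Asparaginase is a leukaemia drug, an enzyme that breaks down asparagine in the blood and, to a lesser extent, glutamine. The 8-week group received 8 daily intraperitoneal injections at 3 IU per g of body weight and the 2-week group 7 at the same dose, so age and the number of injections differ together. In all groups the mice were C57BL/6J without a stated transgene, every injection was a morning one (around 8 AM), and tissue was collected 7.5 h after the final dose. Livers of 8 and 2 weeks injected with phosphate-buffered saline (PBS), 3 libraries in each, are set beside them, and the 16-week libraries of both treatments entered the model only to share its estimate of the spread. Polyadenylated RNA was sequenced, and the 8-week libraries also belong to another series, per the labels. The labels name separate samples but do not say for each that it is 1 mouse, so the p-values measure the spread between these libraries.

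Between 2 and 8 weeks of age a mouse is weaned from milk to solid food and passes puberty. Over that time the liver leaves the fetal programme of growth, in which imprinted growth factors and alpha-fetoprotein are expressed, and takes on the adult one: cytochromes P450, bile acid synthesis, and sex-dependent genes driven by the pulses of growth hormone. Loss of asparagine activates the kinase GCN2, which slows translation and raises ATF4, the transcription factor that induces asparagine synthetase and other amino acid genes; this is the integrated stress response.

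The 6 libraries held between 27465238 and 43622389 counts. By their labels the 8-week group held 1 female (library 1) and 2 males, and the 2-week group 1 male and 2 females; 2-week library 3, and PBS libraries 1 and 2 of 2 weeks, held both Xist and Y-linked transcripts; the cause was not tested. The 12 hepatocyte markers summed to between 74941 and 123312 CPM (the counts of a gene relative to its library size, scaled by TMM, the trimmed mean of M-values) in the 6 libraries. Other tissues were also present. Genes of stratified squamous epithelium summed to 851, 446 and 12.2 CPM in 8-week livers and to 38.4, 3.84 and 3.79 CPM in 2-week livers, and pancreatic acinar genes to 232, 10.0 and 19.4 CPM in 8-week livers and to 1539, 2223 and 797 CPM in 2-week livers. Library 1 of 2 weeks injected with PBS stood apart from the other 2-week libraries, with a fetal gene sum of 408 CPM, against 1606 to 5240 CPM in the other 5.

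Of 16213 genes tested, 2342 were higher and 2633 were lower in 8-week than in 2-week asparaginase livers (edgeR quasi-likelihood test, adjusted p under 0.05, for an even mix of the labelled sexes). That is 30.7% of the genes, 14.4% higher and 16.2% lower, and 896 of the higher and 1109 of the lower genes differed at least 2-fold. The libraries of the 2 groups did not overlap in 43.2% of all genes tested, and the median log2 change was -0.02. In PBS livers the same comparison of ages called 2232 genes higher and 2610 lower, 29.9% of the genes (13.8% and 16.1%). Of the genes higher under asparaginase, 1400 were also higher in PBS livers, 59.8% of the asparaginase list and 62.7% of the PBS list. Of the lower genes 1622 were shared, 61.6% and 62.1%. The sign was the same in PBS livers, passed or not, for 93.0% of the higher and 96.2% of the lower asparaginase genes. Leaving out 8-week asparaginase library 1, the only female of its group, left 1021 genes higher and 834 lower. The adjustment for labelled sex at 8 weeks then rested on PBS livers alone. The remaining asparaginase males were set to an even mix through the sex difference of PBS livers. This holds for every result given without that library.

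**Figure D1:**
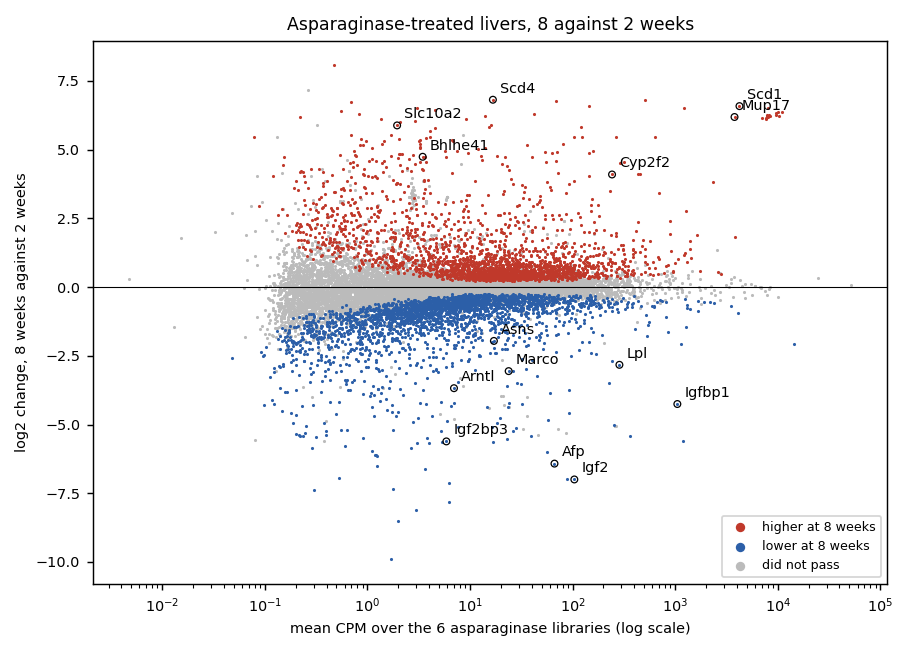
Log2 change of 16213 genes in 8-week against 2-week asparaginase livers (vertical axis) against mean expression over the 6 libraries (horizontal axis, CPM, log scale). Coloured points passed an adjusted p of 0.05 (2342 higher, 2633 lower); the labelled genes are described in the text.

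Genes of fetal and newborn liver were lower at 8 weeks. Of 24 listed genes tested, 17 fell and 1 rose, with a median log2 change of -2.53; in PBS livers 20 fell and none rose (0), with a median of -3.10. Igf2, the imprinted fetal growth factor (chromosome 7, 142650766 to 142666816, GRCm38), had 2.88, 1.03 and 0.847 CPM in 8-week livers, against 86.3, 319 and 216 CPM in 2-week livers. Its log2 change was -7.00 ± 1.29 (SE, adjusted p = 0.00172). H19, the imprinted long non-coding RNA next to it (chromosome 7, 142575529 to 142578143), had 140, 24.5 and 12.1 CPM in 8-week livers, against 1003, 3787 and 2239 CPM in 2-week livers. The libraries did not overlap in either gene, and 2-week library 1 was the lowest of its group in both.

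Afp, alpha-fetoprotein, the main plasma protein of the fetus, had 1.64, 1.28 and 1.69 CPM in 8-week livers and 69.7, 201 and 125 CPM in 2-week livers, a log2 change of -6.42 ± 0.99 (adjusted p = 0.000580). Igf2bp3, a fetal RNA-binding protein of Igf2 and other transcripts, fell by 5.61 ± 0.34 on the log2 scale, at 0.208, 0.142 and 0.367 CPM in 8-week livers, against 12.9, 9.68 and 12.1 CPM in 2-week livers. Gpc3, a glypican of growing hepatocytes, and Cyp3a16, a cytochrome of the young liver, fell by 4.95 and 4.59. The other imprinted growth genes Peg3, Grb10, Cdkn1c and Mest fell by 3.85, 3.47, 2.86 and 2.24. Akr1c18, the 20-alpha-hydroxysteroid dehydrogenase that inactivates progesterone, was at 0.438, 0.0854 and 0.141 CPM in 8-week livers and at 8.76, 11.5 and 11.4 CPM in 2-week livers. The listed gene that rose was Hk2, the hexokinase of muscle and growing cells, by 1.47; this call was lost without 8-week library 1 (adjusted p = 0.272), and also without 2-week library 1 (adjusted p = 0.0503). Library 1 of 8 weeks held 15.5 CPM, against 3.67 and 2.17 CPM in the other 8-week livers, and also the highest sum of skeletal muscle genes, 2308 CPM, against 359 and 152 CPM; the part of muscle in this value was not tested.

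**Figure D2:**
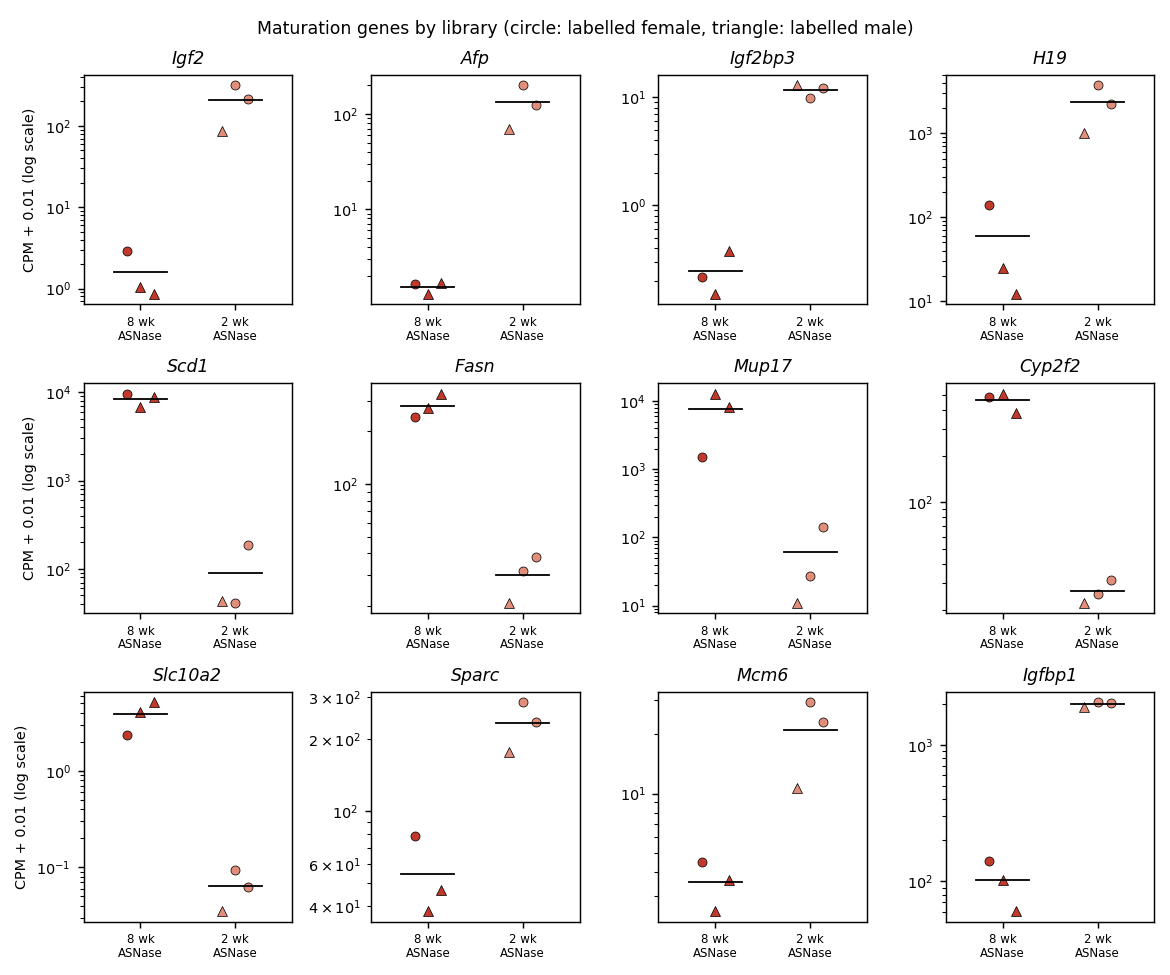
CPM of 12 genes in each library (log scale, with 0.01 CPM added for plotting); circles are libraries labelled female and triangles libraries labelled male, and short bars are group means. Igf2, Afp and Igf2bp3 lie lower and Scd1, Mup17, Cyp2f2 and Slc10a2 higher in 8-week than in 2-week asparaginase livers with no overlap.

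Genes under growth hormone control changed in both directions. All 20 major urinary protein genes tested rose (median log2 change 6.25; 20 of 20 in PBS livers too, median 8.64). These genes encode pheromone carriers of urine, are nearly identical copies on chromosome 4, and reads may have been split among them, so they are best read as a family: together they took 5.39%, 37.4% and 23.5% of all counts in 8-week livers and 0.05%, 0.11% and 0.58% in 2-week livers. Within each group the values are far apart: 8-week library 1 (female) was lowest, and 2-week library 3 was the highest of its group. Mup17 had 1533, 12870 and 8185 CPM in 8-week livers, against 11.1, 27.5 and 144 CPM in 2-week livers (log2 change 6.19 ± 0.84, adjusted p = 0.00028).

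Ghr, the growth hormone receptor, rose by 0.89 ± 0.15 and Igfals, the acid-labile subunit that holds IGF1 in plasma, by 1.12 ± 0.23. Igf1 itself had 245, 399 and 338 CPM in 8-week livers and 177, 269 and 237 CPM in 2-week livers, and its log2 change of 0.49 ± 0.21 did not pass (adjusted p = 0.0828). The binding proteins of fasting and growth fell: Igfbp1 was at 142, 103 and 60.5 CPM in 8-week livers and at 1892, 2074 and 2041 CPM in 2-week livers (log2 change -4.25 ± 0.46), Igfbp2 fell by 2.08 and Igfbp3 by 1.85. Irs2, the insulin receptor substrate that insulin represses, fell by 2.06. Of the 20 genes of the growth hormone axis, 4 rose and 7 fell; 2 rose without 8-week library 2, 2-week library 1 or 2-week library 3.

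Sex-dependent genes need the library values, because the 8-week group is 1 female and 2 males. Of 20 male-biased adult genes 16 rose and none fell (0), with a median log2 change of 2.58. Cyp4a12a, the male fatty acid hydroxylase, had 1.91 CPM in the 8-week female and 289 and 130 CPM in the 8-week males, against 0.101, 0.282 and 2.09 CPM in 2-week livers. Elovl3, a male-biased fatty acid elongase, had 0.484 CPM in the 8-week female and 98.1 and 62.9 CPM in the males, against 0.858, 1.66 and 1.72 CPM at 2 weeks. In that gene only the males lay above the 2-week livers. Cyp7b1, the oxysterol hydroxylase, and Susd4 rose by 3.70 and 2.56.

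Among 25 female-biased genes 6 rose and 10 fell, with a median log2 change of -0.53. These counts depend on the sex term: without it none rose (0) and 2 fell, with a median of 0.2. In a fit of the 6 asparaginase libraries without a sex term 1 rose and 3 fell. Sult2a1, a sulfotransferase of steroids and bile acids, had 98.4 CPM in the 8-week female and 2.39 and 2.03 CPM in the males, against 652, 669 and 736 CPM in 2-week livers. Hao2, a peroxisomal hydroxyacid oxidase, had 18.2 CPM in the female and 0.769 and 0.282 CPM in the males, against 43.1, 77.1 and 52.2 CPM. Both thus lay below all 2-week livers in the 8-week female as well as in the males. Cyp2b9, in contrast, was at 382 CPM in the 8-week female, above the 266, 294 and 250 CPM of 2-week livers, and at 1.11 and 13.6 CPM in the males. Cyp2a4, a testosterone hydroxylase, was at 965, 123 and 207 CPM in 8-week livers and at 32.3, 19.8 and 56.1 CPM in 2-week livers, higher in both sexes. A1bg, a female-biased plasma glycoprotein of unknown role, had 84.2 CPM in the female and 0.142 and 0.424 CPM in the males, against 0.0252, 0.0846 and 0.0794 CPM. Without the 8-week female the calls of Sult2a1 (adjusted p = 0.159), Hao2 (adjusted p = 0.156) and A1bg (adjusted p = 0.0584) were lost, and 3 female-biased genes rose and 5 fell. That fit carried the remaining males to an even mix through the sex difference of PBS livers. The lost calls thus do not mean that the males were level with 2-week livers. Without 8-week library 2 or 2-week library 1, 3 rose as well.

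Lipid synthesis genes were higher at 8 weeks. Of 30 genes of fatty acid and triglyceride synthesis 17 rose and 1 fell, with a median log2 change of 0.95, against 14 and 2 in PBS livers (1 fell without 2-week library 2 or 3 or 8-week library 3). The 4 stearoyl-CoA desaturases, which make monounsaturated fatty acids and lie side by side on chromosome 19, all rose. Scd1 had 9657, 6745 and 8781 CPM in 8-week livers, against 43.3, 41.5 and 185 CPM in 2-week livers (log2 change 6.58 ± 1.12, adjusted p = 0.00101). Scd4, Scd3 and Scd2 rose by 6.82, 6.78 and 2.63. Reads of these similar genes may be shared.

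Fasn, fatty acid synthase, had 243, 271 and 330 CPM in 8-week livers and 20.9, 31.8 and 38.0 CPM in 2-week livers, a log2 change of 3.21 ± 0.56. Thrsp, a lipogenic factor induced by thyroid hormone and carbohydrate, rose by 5.81, Elovl6 by 3.52, Acacb by 3.03, Me1 by 2.28 and Acly by 1.23. The fatty acid transporter Cd36 rose by 1.64. The gene that fell was Lpl, lipoprotein lipase, which is high in suckling liver: it was at 160, 33.2 and 35.2 CPM in 8-week livers and at 324, 660 and 507 CPM in 2-week livers (log2 change -2.83 ± 0.41). In fatty acid oxidation 8 of 31 genes rose and 4 fell, among them Acot1 (2.37), Fabp1 (1.66) and Acaa1b (1.38) upward and Bdh1, a ketone body enzyme, downward (-0.78). Without 8-week library 1, 3 genes of that list rose, and without 2-week library 2, 5 rose.

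Cholesterol synthesis and uptake rose under asparaginase as a list: 17 of 25 genes were higher, none was lower (0), and the median log2 change was 2.18. Their summed level was 2866, 2881 and 2958 CPM in 8-week livers and 746, 864 and 908 CPM in 2-week livers. Idi1, the isopentenyl diphosphate isomerase, had 93.2, 161 and 147 CPM in 8-week livers, against 3.89, 5.50 and 6.70 CPM in 2-week livers. Stard4, a sterol carrier, rose by 2.48 and Tm7sf2, a sterol reductase, by 3.10. In the absence of 8-week library 1, 10 genes of the list rose, with a median of 2.38.

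In PBS livers 1 cholesterol gene of 25 rose. That count rests on 1 library: PBS library 1 of 2 weeks had a summed level of 6061 CPM, against 1441 and 964 CPM in the other PBS livers of 2 weeks and 4307, 3588 and 3762 CPM in PBS livers of 8 weeks. Without it all 25 genes rose in PBS livers, with a median log2 change of 1.79. The rise is therefore not shown to be particular to asparaginase.

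**Figure D3:**
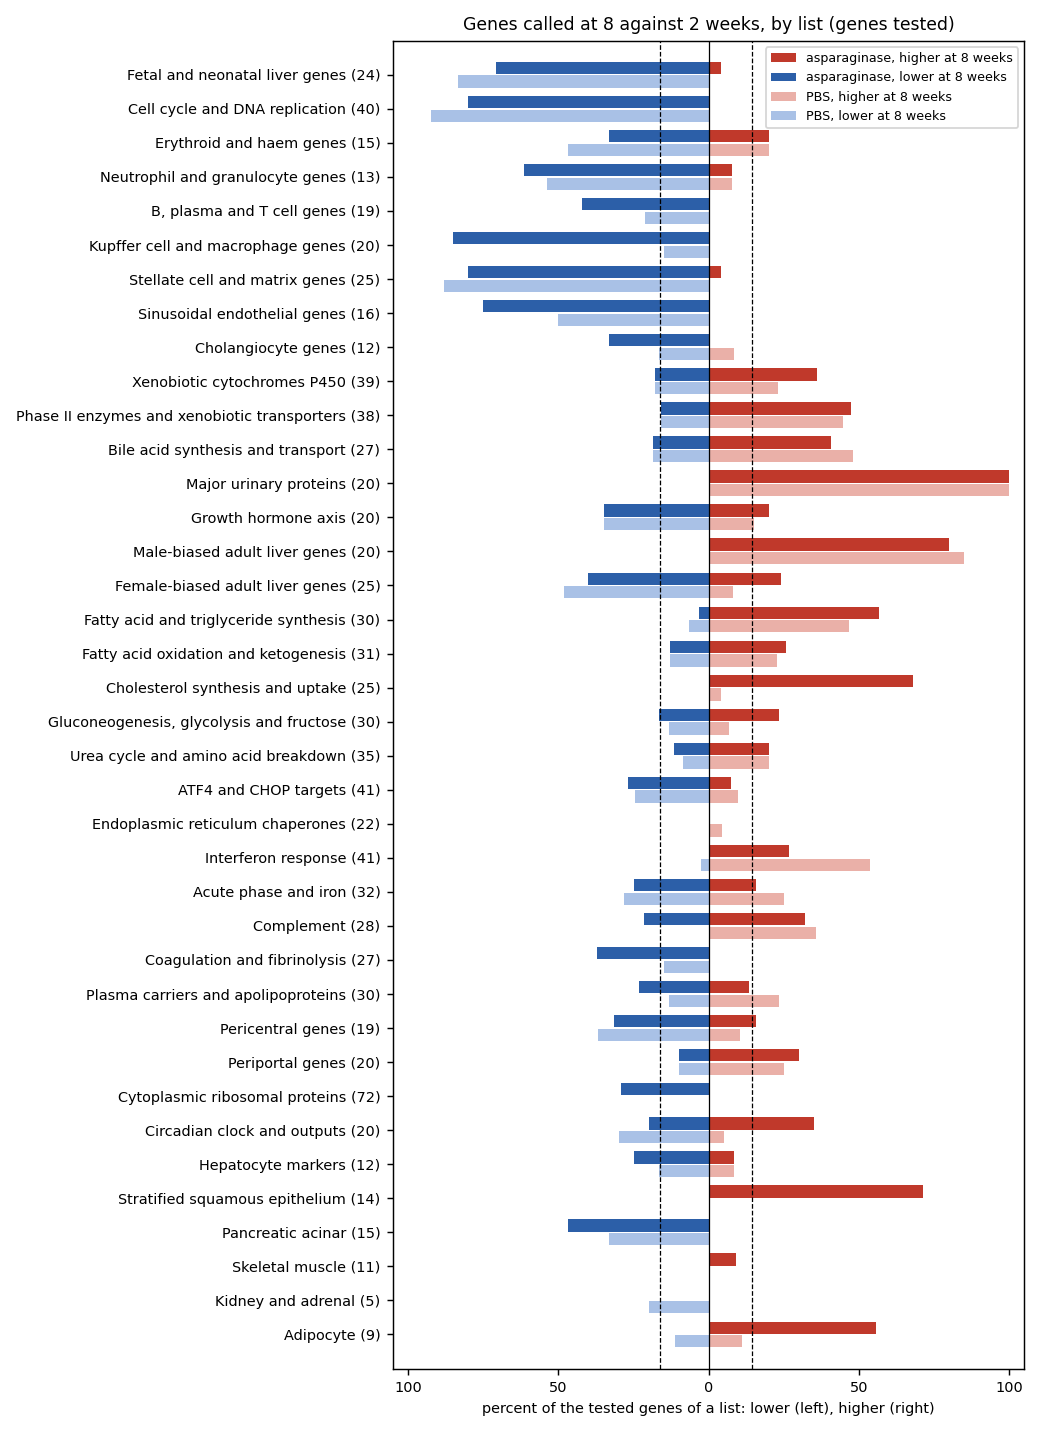
Share of the tested genes of each list that were higher (to the right) or lower (to the left) at 8 than at 2 weeks, in asparaginase livers (upper bar of each pair) and PBS livers (lower bar); dashed lines mark the shares over all genes tested in asparaginase livers, 14.4% and 16.2%. Fetal, cell cycle and matrix genes stand out to the left and lipid synthesis and major urinary protein genes to the right under both treatments, while the Kupffer cell, ribosomal and cholesterol lists have different counts under the 2 treatments.

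Drug-metabolizing genes moved both ways. Of 39 cytochromes P450 of families that handle foreign compounds 14 rose and 7 fell (9 and 7 in PBS livers, where 16 rose without library 1 of 2 weeks). Cyp2f2, a periportal cytochrome, had 486, 509 and 383 CPM in 8-week livers, against 22.4, 25.3 and 31.6 CPM in 2-week livers, a log2 change of 4.10 ± 0.52 (adjusted p = 0.000185). Cyp2c38 rose by 5.19, Cyp2c67 by 2.37, Cyp2c23 by 2.08, and Cyp3a11, the main inducible cytochrome of adult mouse liver, by 1.82. Cyp2a22 fell by 2.42 and Cyp3a44 by 2.29. In Cyp3a44 the 2-week asparaginase livers, at 232, 201 and 140 CPM, lay above the 2-week PBS livers, at 51.8, 61.5 and 72.7 CPM, while all 8-week livers of both treatments were between 28.2 and 44.3 CPM. The number of fallen cytochromes was 4 without 8-week library 1.

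Conjugating enzymes and transporters rose in 18 and fell in 6 of 38 genes. The glucuronosyltransferases Ugt2b38, Ugt2b5 and Ugt2a3 rose by 2.12, 2.05 and 1.99, and Ces3b, a carboxylesterase of the endoplasmic reticulum, by 5.46. Ugt1a5 rose by 5.82, but shares its 3' exons with the other Ugt1a genes, so its reads cannot be assigned with certainty. Sult1d1, a sulfotransferase of phenols and catecholamines, fell by 1.00. Ugt3a1, a sugar transferase of bile acids and other substrates, had 57.1, 88.4 and 82.4 CPM in 8-week livers, against 26.7, 26.9 and 28.1 CPM in 2-week livers, and rose by 1.37 ± 0.10.

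Bile acid genes were higher in 11 and lower in 5 of 27. Slc10a2, the apical bile acid transporter, had 2.33, 4.07 and 5.14 CPM in 8-week livers, against 0.0252, 0.0846 and 0.0529 CPM in 2-week livers (log2 change 5.88 ± 0.42). Cyp8b1, the sterol 12-alpha-hydroxylase that makes cholic acid, rose by 1.98 and Cyp27a1, of the acidic pathway, by 1.29. Cyp7a1, the rate-limiting enzyme of the classic pathway, had 314, 285 and 250 CPM in 8-week livers, against 90.1, 113 and 114 CPM in 2-week livers; the libraries did not overlap, and the change of 1.37 ± 0.53 did not pass (adjusted p = 0.0621). Cyp39a1 fell by 2.01, Slc51b, an exporter subunit, by 3.04, and the sterol exporters Abcg5 and Abcg8 by 0.94 and 0.84.

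Proliferation genes were lower at 8 weeks. Of 40 genes of the cell cycle and DNA replication 32 fell and none rose (0), with a median log2 change of -1.39; in PBS livers 37 fell, with a median of -2.53. Mcm6, a subunit of the replicative helicase, had 4.47, 2.51 and 3.61 CPM in 8-week livers, against 10.6, 29.2 and 23.1 CPM in 2-week livers (log2 change -2.47 ± 0.36). Ccne2, a cyclin of S-phase entry, fell by 1.73 and Cdk1, the mitotic kinase, by 1.68. Cdk1 had 3.39, 0.911 and 1.21 CPM in 8-week asparaginase livers and 3.76, 7.39 and 6.96 CPM in 2-week asparaginase livers, beside 1.98, 0.894 and 2.72 CPM in 8-week PBS livers and 14.8, 11.5 and 13.9 CPM in 2-week PBS livers. The 2-week asparaginase livers thus lay below all 2-week PBS livers in this gene. Mki67 and Top2a, of dividing cells, fell by 1.82 and 2.17.

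The difference between the age effects, asparaginase minus PBS, was positive in 40 of 40 cell cycle genes, with a median of 1.09 on the log2 scale, beside a median of 0.01 over all genes. By edgeR none of these genes passed for that difference (0) and by DESeq2 4 did. Cdk1 had 1.57 ± 0.41 by edgeR (adjusted p = 0.291; by DESeq2 0.0539) and Stmn1, a microtubule regulator of dividing cells, 1.49 ± 0.26 (adjusted p = 0.265; by DESeq2 0.000392). Library 1 of the 8-week asparaginase group was the highest of its group in Cdk1, Mki67 and Top2a. Without it 13 genes of the list fell, with a median of -1.51, and the calls of Mki67 (adjusted p = 0.0724) and Top2a (adjusted p = 0.0822) were lost.

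Genes of non-parenchymal liver cells were mostly lower. In whole liver a fall cannot be told apart between fewer cells of a type and less RNA per cell. Of 25 stellate cell and matrix genes 20 fell and 1 rose (22 and none, 0, in PBS livers), with a median of -1.25; without 8-week library 1 none rose (0). Sparc, a matrix glycoprotein, had 78.5, 38.1 and 46.7 CPM in 8-week livers, against 178, 287 and 236 CPM in 2-week livers. The basement membrane collagen Col4a2 fell by 1.80 ± 0.19, the fibrillar collagens Col5a1 and Col1a1 by 2.26 and 2.13. Of 16 sinusoidal endothelial genes 12 fell; Stab2, the scavenger receptor of these cells, fell by 0.94 ± 0.15, with 47.2, 46.9 and 46.5 CPM in 8-week livers and 76.7, 103 and 93.3 CPM in 2-week livers. With 8-week library 1 left out, 2 endothelial genes fell, and without 2-week library 2, 5, with medians of -0.47 and -0.45. With all libraries but no sex term 12 endothelial genes fell, and 10 fell in a fit of the 6 asparaginase libraries without a sex term.

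Kupffer cell genes, of the resident macrophages, fell in 17 of 20 cases under asparaginase and in 3 of 20 in PBS livers (1 of 20 without library 2 or 3 of 2 weeks or library 2 of 8 weeks), with medians of -0.79 and -0.18. Their summed level was 584, 515 and 491 CPM in 8-week asparaginase livers and 782, 925 and 891 CPM in 2-week asparaginase livers. In PBS livers it was 935, 574 and 823 CPM at 8 weeks and 693, 792 and 931 CPM at 2 weeks, so that the ages overlapped there. Marco, the scavenger receptor, fell under both treatments: 7.66, 2.42 and 4.40 CPM in 8-week asparaginase livers, against 40.3, 44.0 and 44.4 CPM in 2-week asparaginase livers (log2 change -3.06 ± 0.33), beside a change of -2.66 ± 0.32 in PBS livers. Vsig4, a complement receptor, fell by 1.16 ± 0.18 under asparaginase, with 13.9, 12.8 and 12.7 CPM in 8-week livers and 26.9, 34.2 and 31.8 CPM in 2-week livers.

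Clec4f, a lectin made by Kupffer cells alone in mouse liver, fell by 0.86 ± 0.19 under asparaginase. The complement genes C1qb, C1qa and C1qc, which macrophages express, fell by 0.99, 0.97 and 0.92. By edgeR the test of the difference between treatments passed for none of these genes (0; for Vsig4, -0.89 ± 0.26, adjusted p = 0.356). Without 8-week library 1 the Kupffer list kept a median of -0.65, but 2 of its genes fell: Vsig4 and Marco passed, and Clec4f (adjusted p = 0.127), C1qb (adjusted p = 0.0623), C1qa (adjusted p = 0.0876) and C1qc (adjusted p = 0.103) did not. With all libraries but no sex term 17 Kupffer genes fell, and 16 fell in a fit of the 6 asparaginase libraries without a sex term.

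Genes of blood cells were mostly lower where they passed. Of 15 erythroid and haem genes 3 rose and 5 fell: Car2 was at 7.70, 4.96 and 4.57 CPM in 8-week livers and at 28.5, 29.8 and 27.6 CPM in 2-week livers, Tfrc, the transferrin receptor, fell by 2.34, and Alas2, the erythroid haem enzyme, rose by 1.30. Of 13 granulocyte genes 8 fell and 1 rose; Ltf, lactoferrin, had 0.0923, 0 and 0.0282 CPM in 8-week livers, against 0.934, 0.790 and 0.768 CPM. Of 19 lymphocyte genes 8 fell, Gzma, granzyme A, by 3.46. With 8-week library 1 left out, 2 genes fell in each of these 3 lists and 1 erythroid gene rose; without 8-week library 2 or 2-week library 2, 5 granulocyte genes fell, and without 2-week library 2 or 3 the lymphocyte list had 3 or 4.

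Interferon-responsive genes rose in 11 of 41 cases and in 22 of 41 in PBS livers, with medians of 0.29 and 0.58. The share called was 26.8% under asparaginase, all of it higher, beside 30.7% of all genes (14.4% higher). In PBS livers it was 56.1%, beside 29.9% of all genes. For the difference between the age effects none of the list passed by edgeR (0), and DESeq2 called 1 lower. The PBS count was 13 without PBS library 2 or 3 of 2 weeks or library 2 of 8 weeks, and 15 without library 1 of 8 weeks. Cd74, the invariant chain of MHC class II, had 50.8, 26.3 and 35.0 CPM in 8-week asparaginase livers and 21.3, 17.4 and 22.4 CPM in 2-week asparaginase livers (log2 change 0.98 ± 0.20), beside 113, 49.1 and 81.9 CPM in 8-week PBS livers and 16.9, 19.7 and 20.0 CPM in 2-week PBS livers (1.90 ± 0.20). The chemokine Cxcl9 rose by 1.49 and H2-Ab1, a class II chain, by 0.83 under asparaginase. Without 2-week library 1, 3 genes of the list fell. Without 8-week library 1, 3 rose, and Cxcl9 (adjusted p = 0.0655) and H2-Ab1 (adjusted p = 0.0783) did not pass.

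Secreted plasma proteins moved in both directions, apart from the coagulation genes that passed, which all fell. The share called was 53.6% of complement and 40.6% of acute phase and iron genes, beside 30.7% of all genes. It was 37.0% of coagulation genes and 36.7% of plasma carriers and apolipoproteins. Of 30 plasma carriers and apolipoproteins 4 rose and 7 fell; 2 rose and 3 fell without 8-week library 1, 3 and 4 without 2-week library 2, 2 and 5 without 8-week library 2, and 2 and 7 without 8-week library 3 or 2-week library 1. Among them Apoc3 rose by 1.28 and Serpina7, the thyroxine-binding globulin, fell by 2.52. Ahsg, fetuin-A, a hepatocyte marker outside that list, fell by 2.06 ± 0.28, with 4641, 5282 and 6296 CPM in 8-week livers and 19652, 27958 and 21876 CPM in 2-week livers. In the acute phase and iron list 5 of 32 rose and 8 fell, and 5 fell without 8-week library 2, 2-week library 2 or 2-week library 3; Serpina3k rose by 3.81, while Itih3 fell by 1.65 and Apcs, serum amyloid P, by 2.67. Among the complement genes that rose, C9 had 123, 279 and 188 CPM in 8-week livers and 6.61, 15.4 and 12.9 CPM in 2-week livers (log2 change 3.84 ± 0.30), and C7, C8b and C6 rose by 2.09, 1.51 and 1.33. Of 28 complement genes 9 rose and 6 fell, among the fallen the 3 C1q chains; without 8-week library 1 none of the list fell (0). Of 27 coagulation genes 10 fell and none rose (0), with a median of -0.26; without 8-week library 1 or 2-week library 2, 4 fell, and without 2-week library 3, 6.

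Hepcidin, the hormone that blocks iron export, rose under both treatments from different levels at 2 weeks. Hamp (chromosome 7, 30942368 to 30944032) had 271, 387 and 295 CPM in 8-week asparaginase livers and 98.9, 7.14 and 12.0 CPM in 2-week asparaginase livers, a log2 change of 3.00 ± 0.72 (adjusted p = 0.00779). In PBS livers it had 479, 317 and 242 CPM at 8 weeks and 1.60, 1.41 and 1.08 CPM at 2 weeks, a log2 change of 8.00 ± 0.92. The 8-week livers of both treatments overlapped, and the 2-week asparaginase livers all lay above the 2-week PBS livers. The difference between the age effects was -5.00 ± 1.06 and did not pass by edgeR (adjusted p = 0.289). Mt1, a metallothionein that binds zinc and copper, had 487, 68.8 and 60.6 CPM in 8-week asparaginase livers and 128, 155 and 259 CPM in 2-week asparaginase livers. Under asparaginase Mt1 did not pass, and its fitted change was negative. In PBS livers it fell by 2.74 ± 0.51, with 45.5, 14.0 and 20.0 CPM at 8 weeks and 217, 82.9 and 101 CPM at 2 weeks.

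Targets of ATF4 and CHOP, the transcription factors of the integrated stress response, were lower at 8 weeks in 11 of 41 cases and higher in 3, against 10 lower and 4 higher in PBS livers. The share called was 34.1% under both treatments, near the 30.7% and 29.9% of all genes. In PBS livers 4 were lower and 6 higher without 8-week library 2, 9 lower and none higher (0) without 2-week library 2, and 6 lower and 1 higher without 2-week library 3. Asns, asparagine synthetase, the enzyme that replaces the amino acid removed by the drug, had 4.15, 7.95 and 14.2 CPM in 8-week asparaginase livers, against 30.7, 26.4 and 19.4 CPM in 2-week asparaginase livers. Its log2 change was -1.96 ± 0.21 (adjusted p = 7.82e-05). In PBS livers Asns had 0.892, 3.94 and 0.924 CPM at 8 weeks and 3.46, 3.93 and 3.69 CPM at 2 weeks, and fell by 0.98 ± 0.24. All asparaginase livers of 2 weeks thus lay above all those of 8 weeks, and every asparaginase library lay above every PBS library in this gene.

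Atf5, a transcription factor of the mitochondrial stress response, had 123, 241 and 306 CPM in 8-week asparaginase livers and 751, 629 and 404 CPM in 2-week asparaginase livers, a log2 change of -1.52 ± 0.32, beside 194, 143 and 183 CPM in 8-week PBS livers and 113, 132 and 177 CPM in 2-week PBS livers. Psat1, of serine synthesis, fell by 1.41, Pycr1, of proline synthesis, by 1.38, and Nupr1, a stress-induced nuclear protein, by 1.94. Mthfd2, the mitochondrial folate enzyme, rose by 0.99, with 2.21, 4.93 and 3.16 CPM in 8-week livers and 1.24, 1.92 and 1.32 CPM in 2-week livers. Trib3, a pseudokinase induced by ATF4 and CHOP, had 27.3, 29.4 and 27.0 CPM in 8-week livers and 67.0, 26.0 and 19.1 CPM in 2-week livers, and did not pass (log2 change -0.44 ± 0.45, adjusted p = 0.473). Without 8-week library 1 the list had 1 gene lower, Asns, and Atf5 (adjusted p = 0.0834), Psat1 (adjusted p = 0.178), Pycr1 (adjusted p = 0.119) and Nupr1 (adjusted p = 0.121) did not pass; without library 2 it had 8 lower and none higher (0), and without 2-week library 2, 6 lower. The list median of -0.28 turned to 0.03 without 2-week library 1. Mthfd2 lost its call without either of these 8-week libraries (adjusted p = 0.178 and 0.0756) or without 2-week library 1 or 3 (adjusted p = 0.0718 and 0.069).

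Promoters of 3 ATF4 targets that fell are shown, as examples of the element through which ATF4 is known to act. The windows are the 250 bases before the RefSeq gene start on GRCm38.p6, on the gene's strand, and capitals mark the C/EBP-ATF response element, TGATGNAA or its reverse complement. Asns, chr6:7693210-7693459, minus strand:
Asns: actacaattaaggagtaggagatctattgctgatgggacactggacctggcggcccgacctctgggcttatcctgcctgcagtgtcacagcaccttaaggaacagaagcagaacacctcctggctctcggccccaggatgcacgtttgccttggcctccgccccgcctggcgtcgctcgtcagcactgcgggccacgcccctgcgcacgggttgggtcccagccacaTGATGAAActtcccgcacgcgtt
Nupr1, chr7:126625471-126625720, minus strand, with the element in reverse:
Nupr1: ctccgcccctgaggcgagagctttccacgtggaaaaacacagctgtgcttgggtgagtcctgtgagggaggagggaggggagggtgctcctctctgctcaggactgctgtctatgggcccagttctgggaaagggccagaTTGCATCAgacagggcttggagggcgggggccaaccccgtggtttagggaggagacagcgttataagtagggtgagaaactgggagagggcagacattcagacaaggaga
Pycr1, chr11:120643749-120643998, minus strand:
Pycr1: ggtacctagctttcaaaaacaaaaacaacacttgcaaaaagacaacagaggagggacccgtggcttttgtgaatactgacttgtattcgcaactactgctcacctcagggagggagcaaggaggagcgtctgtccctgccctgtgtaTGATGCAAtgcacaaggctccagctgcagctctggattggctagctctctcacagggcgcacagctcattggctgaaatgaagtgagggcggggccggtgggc
The element stood in 12 of the 35 listed genes with a promoter in the RefSeq table (34.3%), searched on both strands, and in 3.91% of all 27025 genes there. It was present in 6 of the 11 members that fell and in 0 of the 2 members that rose and had a promoter. A match of letters does not show that a factor binds there.

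**Figure D4:**
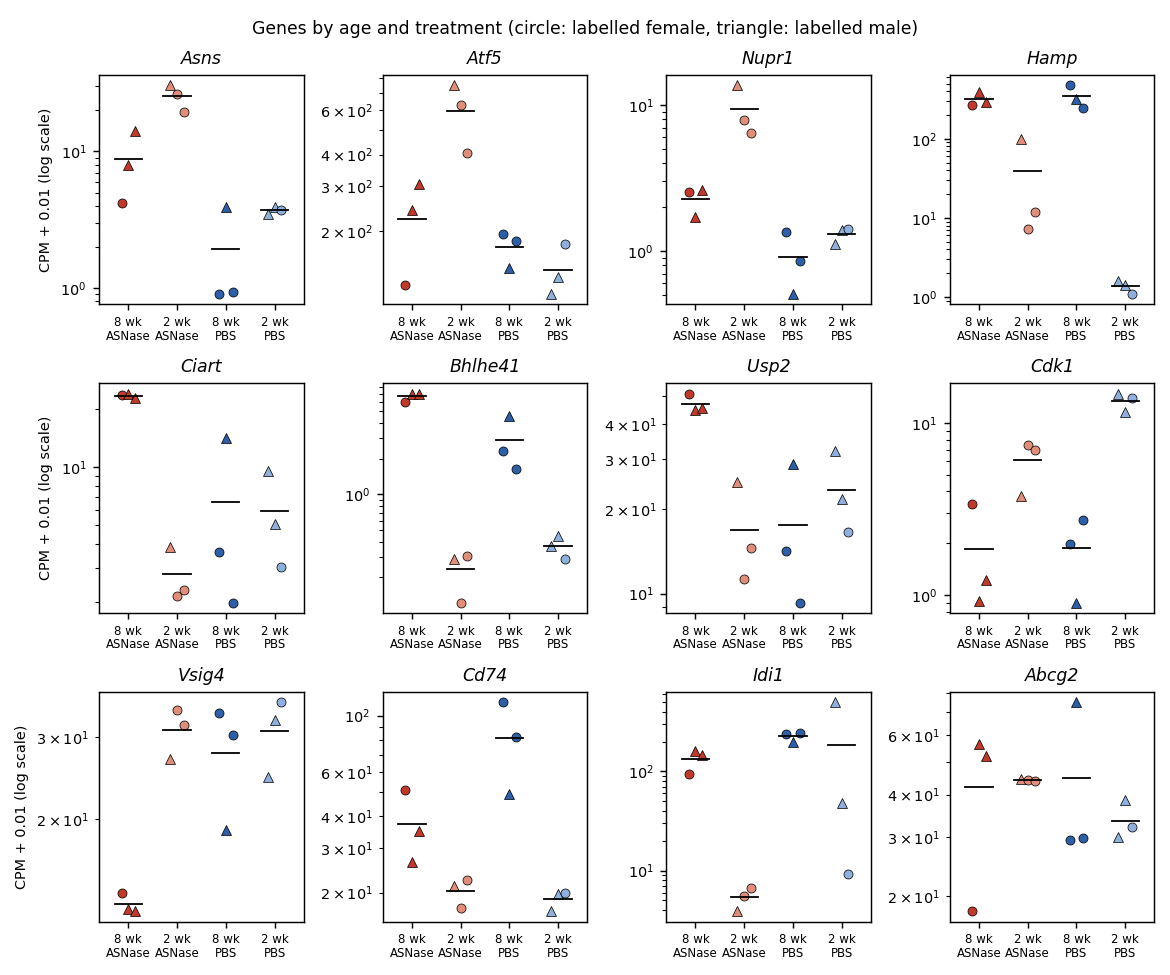
CPM of 12 genes in each library of the 4 groups of 8 and 2 weeks (log scale, with 0.01 CPM added for plotting); symbols as in the plot of maturation genes. Asns, Atf5 and Nupr1 are highest in 2-week asparaginase livers, and Ciart, Bhlhe41 and Usp2 are highest in 8-week asparaginase livers.

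Genes of amino acid breakdown and of sugar metabolism changed in both directions. In the urea cycle and amino acid list 7 of 35 rose and 4 fell, against 7 and 3 in PBS livers. The share called, 31.4%, was near the 30.7% of all genes, and in PBS livers the 7 rises became 14 without 8-week library 3, 3 without 8-week or 2-week library 2, and 4 without 8-week library 1 or 2-week library 3, where in the last case 1 fell. Oat, ornithine aminotransferase, rose by 1.69, Gpt2, the mitochondrial alanine aminotransferase, by 1.36, Tdo2, of tryptophan breakdown, by 1.31, and Aspg, a liver asparaginase of the mouse itself, by 1.13. Aspg had 171, 126 and 117 CPM in 8-week livers and 72.5, 45.2 and 77.0 CPM in 2-week livers. In the absence of 8-week library 1, Gpt2 (adjusted p = 0.13) and Aspg (adjusted p = 0.0598) did not pass, and 2 of the list rose and none fell (0); without 2-week library 2, 2 fell. In glucose and fructose metabolism 7 of 30 rose and 5 fell, and 3 fell without 2-week library 2. The share called there, 40.0%, was above the 30.7% of all genes. Ldha, lactate dehydrogenase A, and Slc2a1, the widespread glucose transporter, fell by 1.01 and 1.15. Without 8-week library 1 none of this list rose (0).

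Ribosomal protein genes were lower in 21 of 72 cases under asparaginase, with a median log2 change of -0.36, and in 0 of 72 in PBS livers (2 without 8-week library 1), with a median of 0.00. The share called under asparaginase, 29.2%, was near the 30.7% of all genes, of which 16.2% were lower. At an adjusted p under 0.01, 1 fell, in a fit of the 6 asparaginase libraries 3, and by DESeq2 30. For the difference between the age effects none passed by edgeR or DESeq2 (0). Their sum was 9757, 10866 and 11562 CPM in 8-week asparaginase livers and 17143, 11933 and 12780 CPM in 2-week asparaginase livers, so 2-week library 1 was far above the rest. Without it 2 of these genes fell, without 8-week library 2, 10, and without 8-week library 1 none (0). Of 22 endoplasmic reticulum chaperones none rose or fell (0 and 0 by edgeR); without 2-week library 1, 2 fell, without 2-week library 3 or 8-week library 3, 1 fell, and without 8-week library 1, 1 rose.

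Clock genes differed between the ages although all livers were taken at the same hour. Of 20 genes 7 rose and 4 fell under asparaginase (1 and 6 in PBS livers; 3 and 5 without library 1 of 2 weeks, 2 and 4 without library 1 of 8 weeks). Bhlhe41, a repressor of the clock (DEC2), had 5.97, 7.06 and 7.06 CPM in 8-week livers, against 0.278, 0.113 and 0.291 CPM in 2-week livers (log2 change 4.74 ± 0.34, adjusted p = 2.78e-06). Ciart, another repressor, had 23.7, 24.1 and 22.8 CPM in 8-week asparaginase livers and 3.86, 2.12 and 2.30 CPM in 2-week asparaginase livers, beside 3.60, 14.1 and 1.97 CPM in 8-week PBS livers and 9.54, 5.07 and 3.02 CPM in 2-week PBS livers. It rose by 3.00 ± 0.51 under asparaginase, and its values at the 2 ages overlapped in PBS livers; the difference was 2.95 ± 0.70 (adjusted p = 0.289 by edgeR, 0.0409 by DESeq2). DESeq2 called 2 clock genes for that difference and edgeR none (0).

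Dbp, an output factor of the clock, rose by 2.95, Nr1d1, the receptor REV-ERB-alpha, by 2.45, and Usp2, a rhythmic deubiquitinase, by 1.43. The activators moved the other way: Arntl (BMAL1) had 0.807, 1.14 and 1.02 CPM in 8-week livers, against 10.1, 17.1 and 11.8 CPM in 2-week livers (log2 change -3.68 ± 0.73), and its relative Npas2 fell by 3.64; the repressor Cry1 fell by 1.78. Without 8-week library 1, 2 genes of the list rose and 2 fell, and Dbp (adjusted p = 0.109), Nr1d1 (adjusted p = 0.0659), Usp2 (adjusted p = 0.221) and Npas2 (adjusted p = 0.14) did not pass.

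The promoters of Bhlhe41 and Ciart, 2 of the clock genes that rose, are shown as examples of the E-box CACGTG, the element that ARNTL and its partner bind, in capitals (same source and window). Tef, which also rose, holds it too, and Nr1d1, Dbp and Usp2 have no match in this window. Bhlhe41, chr6:145865421-145865670, minus strand:
Bhlhe41: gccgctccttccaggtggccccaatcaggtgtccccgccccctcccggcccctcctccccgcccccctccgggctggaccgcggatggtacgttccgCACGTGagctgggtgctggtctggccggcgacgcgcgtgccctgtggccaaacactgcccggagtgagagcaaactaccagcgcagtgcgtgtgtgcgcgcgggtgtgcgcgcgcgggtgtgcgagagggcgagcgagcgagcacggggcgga
Ciart, chr3:95882229-95882478, minus strand, with 3 matches:
Ciart: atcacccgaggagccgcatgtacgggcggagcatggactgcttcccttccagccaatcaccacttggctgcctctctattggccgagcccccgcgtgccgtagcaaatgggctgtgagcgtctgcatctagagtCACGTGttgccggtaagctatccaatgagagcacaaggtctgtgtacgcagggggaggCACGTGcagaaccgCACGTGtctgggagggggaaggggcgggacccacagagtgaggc
The E-box stood in 5 of the 17 clock genes with a promoter in the table (29.4%) and in 6.86% of all genes there; the motif is its own reverse complement, so 1 search covers both strands. Of the members with a promoter it was found in 3 of the 7 that rose and in 1 of the 4 that fell.

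Markers of other tissues also passed the test. Of 14 squamous genes 10 rose. Without 8-week library 1 none did (0), and without library 2, 1 did. Without 2-week library 2, 2 did, and without library 3, 3 did. Hrnr, a gene outside that list, had 69.1, 22.2 and 3.02 CPM in 8-week livers, against 1.44, 0 and 0 CPM in 2-week livers. Its call was lost without 8-week library 1. Of 15 acinar genes 7 fell, among them Cel, carboxyl ester lipase, with 6.62, 0.114 and 0.734 CPM in 8-week livers and 91.0, 181 and 57.2 CPM in 2-week livers. Its call was lost without any 1 of 5 of the 6 libraries. Pnliprp2, Zg16, Pnliprp1, Clps and Reg1, also of the pancreas, fell as well. The calls of Zg16 and Clps were lost without any 1 of the 6 libraries. Those of Pnliprp2 and Reg1 were lost without 8-week library 1 or 2 or 2-week library 2, and that of Pnliprp1 without 8-week library 1. Without 8-week library 1 no gene of the acinar list passed (0). Without 8-week library 2 or 3, or 2-week library 1 or 2, 1 did, and without 2-week library 3, 4 did. Of 11 skeletal muscle genes 1 rose, and none did (0) without any 1 of 5 of the 6 libraries and 2 without 8-week library 3; of 9 adipocyte genes 5 rose. Their part in the other results was not tested.

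Among the remaining lists the share called was 47.4% of pericentral and 40.0% of periportal genes, beside 30.7% of all genes. It was 33.3% of hepatocyte markers and 33.3% of cholangiocyte genes. Of 19 pericentral genes 3 rose and 6 fell, and of 20 periportal genes 6 rose and 2 fell; without 8-week library 1 these were 3 and 1, and 2 and 1, and without 2-week library 2 the periportal genes were 7 and 1. Of 12 hepatocyte markers 1 rose and 3 fell (0 and 1 without 8-week library 1; none rose, 0, and 2 fell without 8-week library 2 or 2-week library 3; none rose without 8-week library 3 or 2-week library 1), of 12 cholangiocyte genes 4 fell (0 without 8-week library 1 and 2 without 2-week library 2), and of 5 kidney and adrenal genes none changed (0; 1 rose without 2-week library 1, and 1 fell without 8-week library 2 or 3).

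The direct test of whether the ages differed by another amount under asparaginase than under PBS called 0 of 16213 genes with edgeR, and 1461 at an unadjusted p under 0.05. DESeq2 called 61 genes with a more positive and 21 with a more negative age effect under asparaginase, and limma-voom 0. Across the genes tested the log2 changes of both comparisons had a Pearson r of 0.66 and a Spearman rho of 0.72, which is across genes and not replicates; the model's sex term and its spread are shared by both. The smallest p-values belonged to Abcg2 and Ugt3a1. Abcg2, an efflux transporter of drugs and urate, had 18.1, 56.4 and 51.9 CPM in 8-week asparaginase livers, against 44.4, 44.2 and 43.7 CPM in 2-week asparaginase livers, and 29.4, 75.0 and 29.8 CPM in 8-week PBS livers, against 30.0, 38.5 and 32.0 CPM in 2-week PBS livers. The 8-week values are split by labelled sex, with the males higher, so the fitted change of an even mix, -0.47 ± 0.10 under asparaginase and 0.51 ± 0.10 under PBS, is smaller than the spread within a group; the difference was -0.98 ± 0.15 (adjusted p = 0.0898 by edgeR, 3.33e-06 by DESeq2). Ugt3a1 rose by 1.37 under asparaginase and by 2.35 ± 0.11 under PBS (difference -0.98 ± 0.15, adjusted p = 0.0898 by edgeR, 3.4e-06 by DESeq2).

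Only 6 genes were called in opposite directions by the age comparison within each treatment, chosen here after their values were seen: Pitpnc1, Ptgr1, Rapgefl1 and Wee1 rose under asparaginase and fell in PBS livers, and Abcg2 and Tuba4a did the reverse. Pitpnc1, a phosphatidylinositol transfer protein, had 29.8, 38.3 and 33.9 CPM in 8-week asparaginase livers and 20.6, 23.6 and 27.1 CPM in 2-week asparaginase livers, against 20.4, 30.3 and 20.9 CPM in 8-week PBS livers and 32.5, 31.7 and 32.5 CPM in 2-week PBS livers, without overlap in either pair. Its changes were 0.44 ± 0.12 and -0.39 ± 0.12. Wee1, the kinase that holds Cdk1 inactive, rose by 1.10 under asparaginase and fell by 0.87 in PBS livers. Without 8-week asparaginase library 1 none of these 6 genes kept its call under asparaginase (adjusted p from 0.094 for Abcg2 to 0.561 for Rapgefl1).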

How the data were processed

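Polyadenylated liver RNA of 18 libraries in 6 groups of 3 was sequenced. The authors deposited 1 table of raw counts for 37315 genes, of which 25426 had at least 1 count. The submitters' processing notes name TopHat2 2.0.9, DESeq2, GRCm38 and mm10; no source used here gives the counting tool, annotation or strand setting, so reads of overlapping and antisense genes may be shared. Identifiers were matched to GENCODE M21 (35449 of 37315). Totals ran from 24690871 to 46949361 counts per library, and no 2 columns were identical (0 pairs).

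All 18 libraries entered 1 edgeR quasi-likelihood model (edgeR 4.0.16, R 4.3.3) with TMM scaling and the filterByExpr filter (at least 10 counts, total at least 15), which kept 16213 genes. The model had 1 term per group and a term for labelled sex within 8 weeks and within 16 weeks (male 0.5, female -0.5), and p-values were adjusted by Benjamini-Hochberg over all genes tested. Contrasts were 8 against 2 weeks under asparaginase, under PBS, and their difference. SE is an approximate standard error of the log2 change: its absolute value divided by the square root of the edgeR F statistic. CPM values were computed here from the deposited counts. The model was also run on simulated data with changes planted in a small set of genes of the 8-week asparaginase group. Sex effects, differences in major urinary proteins and other tissues were not simulated, so that run does not cover them. Alternatives used DESeq2 1.42.0 and limma 3.58.1, other scalings, filters, sex terms and sets of libraries.

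The gene lists and the libraries compared were chosen with earlier results of these data known. Genes were named by rule: the 12 largest rises and the 12 largest falls with at least 10 CPM and no overlap, up to 4 genes in each direction by smallest p in each list, and genes fixed by name. Others, among them Idi1, Elovl6, Peg3, Mest, Clec4f, Nupr1, Dbp, Cdk1, Stmn1, Cyp4a12a, Cyp2b9, Elovl3, H2-Ab1, Col1a1 and Cyp2c67, were named after their values were seen. Some genes are not reported here.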

Additional observations from a re-analysis of the deposited data

How the results depend on the processing

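No paired analysis was possible because the replicate numbers were given in accession order and pair no libraries. Under asparaginase, 1146 genes were higher and 1238 lower at an adjusted p under 0.01, 896 and 1109 with at least a 2-fold change, and 1528 were lower in a fit of the 6 asparaginase libraries without a sex term. With library totals in place of TMM, 932 were higher and 6979 lower, and the median log2 change of all genes moved to -0.4; the changes reported are relative to the TMM scale. Without 8-week asparaginase libraries 1 and 2, which held squamous transcripts, 345 were higher and 182 lower; 1 library of that group then remains, assumed to vary like the other groups. Leaving out each library in turn gave 1021 to 2756 higher and 834 to 2961 lower. In PBS livers, 1105 were higher and 1389 lower at an adjusted p under 0.01, 572 and 1339 with at least a 2-fold change, 350 and 11793 with library totals (median -0.74), and 1243 to 2649 and 1581 to 2997 with each library left out. For the difference of the age effects DESeq2 called 61 and 21 genes, and leaving out each library gave 0 to 17 and 0 to 3; the cause of these moves was not tested. The signs of 6 genes turned, none past the threshold after the turn. Mt1 under asparaginase was 0.18 without a sex term, 0.2 in the 6-library fit, 0.27 without the 3 libraries holding transcripts of both sexes, 0.26 without 2-week library 3, and 0.02 and 0.09 without 8-week libraries 2 and 3. Mt1 was -0.87 without 8-week library 1. Trib3 was between -0.73 (without 2-week library 3) and 0.3 (without 2-week library 1), and without the 2 squamous libraries Rapgefl1 was -1.1 and Cyp2b9 0.32. With library totals Abcg2 and Tuba4a in PBS livers were -0.21 and -0.15. Of 136 genes named in the text and called under asparaginase, 49 were called under each of the alternatives and 100 without any 1 library.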
